A study of Rattus norvegicus with 6 samples.

Results

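The genes described here are 10 ligands and receptors of the PDGF, FGF and EGF families in rat synovial fibroblast-like cells. They were chosen by name, as the rows of the deposited table whose symbol is Pdgfra, Pdgfrb, Pdgfa, Fgf2, Fgf7, Fgfr1, Egfr, Hbegf, Areg or Ereg, with the most abundant row where a symbol has several. All 10 were found among 16499 distinct symbols, and the rule itself uses no measured value. A filter on low values, at least 1 CPM (read counts scaled to the library size) in both libraries of at least 1 group, was passed by 8 of them, while Areg and Ereg did not pass.

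Cells were grown from the synovium of female Wistar rats with collagen-induced arthritis, taken at disease onset. Cells of 2 sources were each divided over 3 serological settings, giving 6 libraries of poly(A)-selected RNA and 2 libraries per setting. The labels number the sources RA1 and RA2 in every setting without describing them further, and they are read and called here as rat 1 and rat 2. The settings differed in what was added to the medium: FBS (fetal bovine serum), blood serum of untreated rats (MS−), or blood serum of arthritic rats after 18 days of mechanical stimulation with a needle (MS+), which the labels call acupuncture. The comparison of MS+ with MS− asked how the cells respond to serum of stimulated rats, and FBS was the control medium. The study describes the MS− serum as drawn before therapy began and the MS+ serum as drawn at day 18. Stimulation and the time of serum sampling therefore cannot be told apart in MS+ against MS−. All 6 cultures shared the expansion in FBS, the rats' disease and an enzymatic harvest with trypsin. The rat, so read, is the replicate, the number of serum donors is not given in the labels, and p-values therefore measure the spread between these cultures only. The disease field of the MS− labels gives arthritis, whereas their description speaks of healthy rats. The study gives the MS− donors as untreated rats in which arthritis had been induced. Rat serum also differs from FBS in species, and in the 2 contrasts against FBS this cannot be told apart from other differences of the sera. Both contrasts use the same 2 FBS libraries.

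The growth factors of these families bind receptor tyrosine kinases on the cell surface. A bound receptor dimerises and phosphorylates itself, recruits adaptor proteins and starts the ERK cascade as well as PI3K and AKT signalling. In fibroblasts, PDGF is a classical serum mitogen, FGF ligands act with heparan sulphate as a cofactor, and EGF family ligands are made as membrane-bound precursors that metalloproteases release. Several genes switched on by ERK encode inhibitors of the same cascade, among them the Sprouty proteins and the phosphatase DUSP6.

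Library depth was 5463316 to 5991889 reads, and the floor of detection in a library was set at 3 reads, equal to 0.491 to 0.551 CPM. Values are CPM scaled by the TMM method (trimmed mean of M values) and not per transcript length, so levels are compared between libraries and not between genes. The cells carried Col1a1 (23563 to 40458 CPM), Vim (11485 to 16559 CPM), Thy1 (1089 to 1551 CPM) and Cdh11 (374 to 817 CPM), markers of synovial fibroblasts, whereas the fibroblast markers Dcn and Lum stayed at or below 0.901 and 0.918 CPM. Prg4 and Fap of the same list were also low, at 1.27 to 3.32 CPM and 2.78 to 9.19 CPM, and the Prg4 row overlaps another gene. The summed level of the 11 fibroblast markers, mostly Col1a1, Col1a2 and Col3a1, was 78674 to 85612 CPM in FBS, 60226 to 62779 CPM in MS− and 68935 to 71484 CPM in MS+. Pdpn, podoplanin, was at 40.9 and 42.4 CPM in FBS, 21.2 and 22.2 CPM in MS−, and 18.6 and 16.5 CPM in MS+. Of 8 macrophage markers, 5 (Ptprc, Cd163, Aif1, Lyz2 and Emr1) were at 0 in every library. Ptprc has 5 rows, and the Aif1 and Lyz2 rows each overlap another gene, so reads may be missing from their counts. The summed level of the macrophage list was 13.8 to 14.6 CPM in FBS, 17.2 to 20.5 CPM in MS− and 16.3 to 17.7 CPM in MS+, most of it Cd14. Of 5 epithelial markers found, 4 were at 0, and Krt8 had 1 to 7 reads per library. Of 3 endothelial markers Cdh5 was at 0, Pecam1 had at most 1 read per library, and Tek had 1 to 9 reads and passed the filter. Of 5 pericyte and smooth muscle markers found, Rgs5 was at 0, and the summed level was 2320 to 2587 CPM in FBS, 3104 to 3164 CPM in MS− and 3010 to 3125 CPM in MS+, mostly Cspg4 and Myh11.

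Promoters are shown for the genes whose level passed a test in any fit described below and that are in the RefSeq promoter table (Pdgfa and Pdgfra), and for Areg, which was at most 2 reads in every library. The table, of build GRCr8, held 7 of the 10 genes, with no entry used here for Pdgfrb, Fgfr1 and Ereg. The stretch shown is the 250 bases before the annotated start, 5′ to 3′ on the strand of the gene. Capitals mark matches, on either strand, to a GC box (GGGCGG), an AP-1 site (TGANTCA), a cAMP response element (TGACGTCA), an EGR site (GCGNGGGCG) or a TATA box (TATAAA). The Pdgfa stretch is chr12:20759116-20759365 (+ strand), that of Pdgfra is chr14:33408517-33408766 (− strand), and that of Areg is chr14:17265642-17265891 (− strand).
Pdgfa: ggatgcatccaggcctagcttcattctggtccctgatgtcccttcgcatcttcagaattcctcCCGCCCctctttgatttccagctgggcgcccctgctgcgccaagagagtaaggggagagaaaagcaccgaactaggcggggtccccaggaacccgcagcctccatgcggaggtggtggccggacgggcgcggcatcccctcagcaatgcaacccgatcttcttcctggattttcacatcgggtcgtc
Pdgfra: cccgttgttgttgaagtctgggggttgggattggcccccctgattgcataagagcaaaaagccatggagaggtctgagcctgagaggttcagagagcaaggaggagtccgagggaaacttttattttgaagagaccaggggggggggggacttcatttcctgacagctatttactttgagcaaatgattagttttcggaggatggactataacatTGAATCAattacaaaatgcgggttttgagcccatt
Areg: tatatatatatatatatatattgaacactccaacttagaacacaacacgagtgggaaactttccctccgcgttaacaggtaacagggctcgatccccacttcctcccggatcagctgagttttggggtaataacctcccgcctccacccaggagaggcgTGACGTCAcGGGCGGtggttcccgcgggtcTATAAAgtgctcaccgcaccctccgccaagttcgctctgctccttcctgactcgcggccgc

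The Pdgfa stretch held 1 match, a GC box on the opposite strand, and the Pdgfra stretch 1 AP-1 match close to the start. The Areg stretch held a cAMP response element, a GC box and a TATA box, in that order towards the start. Among the 7 members in the table, a GC box was found in 3 (Areg, Egfr, Pdgfa), a TATA box in 2 (Areg, Fgf7), an AP-1 site in 1, a cAMP response element in 1, and an EGR site in 0. Of all 33469 promoters, cut to the same length, 30.5% held a GC box, 12.9% a TATA box, 6.34% an AP-1 site, 4.29% an EGR site and 1.59% a cAMP response element. None of the matches overlapped another in the sequences shown. A match is a run of letters and was not tested as a binding site.

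In limma with condition as the only term, Pdgfa was the 1 member called; Fgfr1 and Pdgfra were called in other fits, given with each gene. It rose in both rat sera against FBS, and its difference between MS+ and MS− was −0.03 on the log2 scale. Between MS+ and MS−, 0 of the 8 tested members reached an unadjusted p under 0.05 in limma, beside 14.7% of all 9820 features. On the recovered reads 0 were called by edgeR or DESeq2, for which no share of all features was computed. In limma 0 of the 8 passed a Benjamini-Hochberg adjusted p under 0.05 there, beside 0.0204% of all features. Between MS+ and FBS, 1 of 8 passed, beside 9.61% of all features, and between MS− and FBS 1 of 8, beside 4.81%. With the rat as a block in the limma fit, the members called were 1, 3 and 2 in the same order, beside 10.1%, 28.2% and 20.5% of all features. No member reached 2-fold with an unadjusted p under 0.05 in any comparison, beside 1.24%, 5.3% and 3.62% of features. These are the study's own thresholds, set here on limma of log2(CPM + 1), whereas the study used limma-voom. The 8 tested members had a median log2 fold change of 0.01 in MS+ against MS−, 0.00 in MS+ against FBS and −0.07 in MS− against FBS, and the median of all features was −0.01, 0.00 and 0.01.

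**Figure D1:**
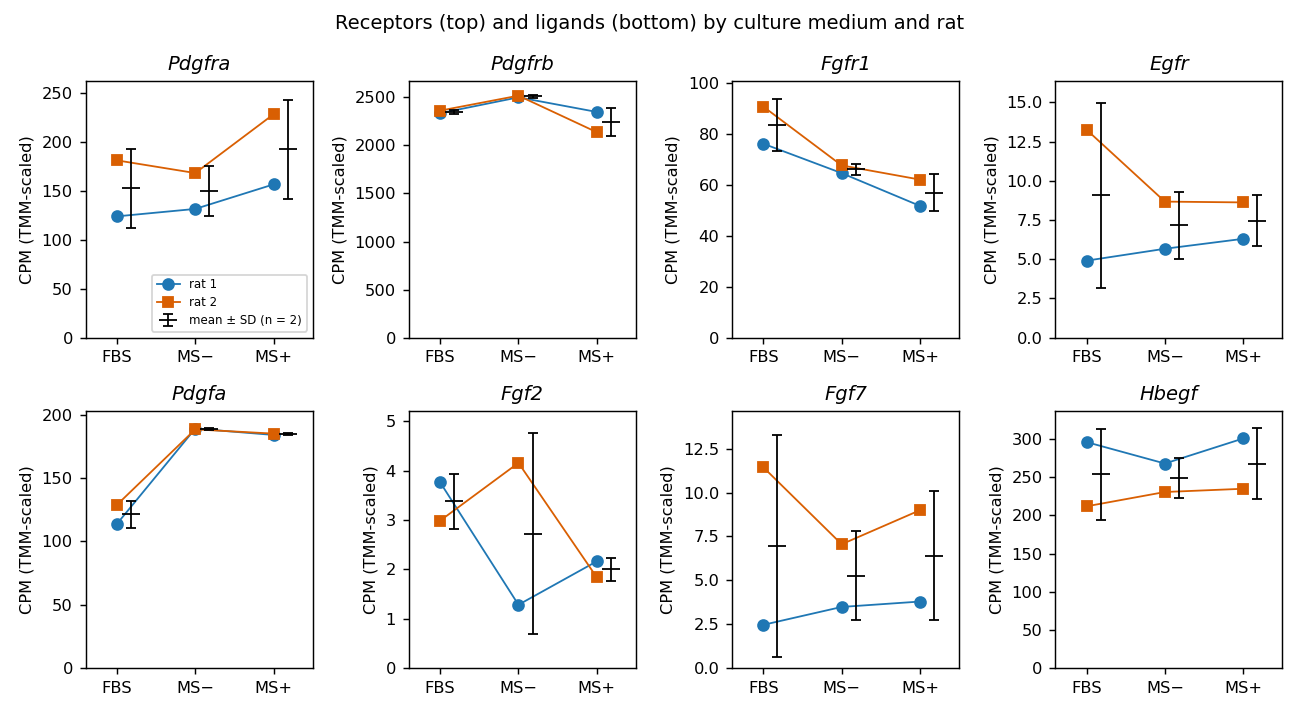
Levels of the 8 tested members in CPM (y axis, linear from 0) in FBS, MS− and MS+ medium, with 1 coloured line per rat and the mean ± SD of the 2 libraries in black. Both Pdgfa lines climb from 114 and 129 CPM in FBS to between 184 and 189 CPM in the rat sera, while the lines of Pdgfra, Fgf7 and Egfr stay apart by rat in every medium.

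Among the ligands, Pdgfa encodes the PDGF A chain, a ligand of the alpha receptor, and lies in rn4, the genome build of the files, on chromosome 12 from 16151045 to 16172401 (+ strand). In FBS it was at 114 CPM in the cells of rat 1 and 129 CPM in those of rat 2. In MS− it was at 189 CPM in both rats, and in MS+ at 184 and 185 CPM. The FBS libraries were thus the lowest, and neither rat serum overlapped them. Pdgfa was 1.56-fold higher in MS− than in FBS (log2 fold change 0.64 ± 0.0949, SE; limma, adjusted p = 0.0164), with a rise of 0.73 in rat 1 and 0.55 in rat 2 on the log2 scale. It was 1.52-fold higher in MS+ than in FBS (0.60 ± 0.0949; limma, adjusted p = 0.0147), with a rise of 0.69 and 0.52. Between MS+ and MS− the log2 difference was −0.03, with a 95% interval of −0.26 to 0.19 (limma, adjusted p = 0.917). These are differences of RNA per library, in which a change in the make-up of the culture and a change of RNA per cell cannot be told apart. The summed pericyte and smooth muscle markers given above were also higher in both rat sera than in FBS, and Myh11 of that list passed in MS+ against FBS (log2 fold change 0.55, limma, adjusted p = 0.0428). Of the same list Des was lower in rat serum, at 2.13 and 1.49 CPM in FBS, 0.183 and 0.904 CPM in MS−, and 0.180 and 0.184 CPM in MS+, and Mcam was at 11.6 and 13.8 CPM in FBS and 10.5 to 12.7 CPM in the rat sera. The summed fibroblast markers were lower in both rat sera than in FBS. That sum was mostly Col1a1, Col1a2 and Col3a1, and Thy1 and Pdpn were also lower in rat serum. Vim and Fap of the same list were higher in rat serum. Vim was at 11485 and 11981 CPM in FBS, 12544 and 14340 CPM in MS−, and 13972 and 16559 CPM in MS+. Fap was at 2.78 and 3.48 CPM in FBS and 4.52 to 9.19 CPM in rat serum. The part of these markers in the Pdgfa result was not tested. Both calls were lost in some fits without 1 library, each of which leaves 1 library in a group. The call in MS+ was lost without FBS replicate 1, MS+ replicate 1 or MS+ replicate 2 (limma, adjusted p up to 0.0935), and that in MS− without FBS replicate 1, MS− replicate 1 or MS− replicate 2 (up to 0.114). In each of these fits Pdgfa was higher in rat serum than in FBS. Over all fits without 1 library its log2 difference from FBS was 0.52 to 0.69 in MS+ and 0.55 to 0.73 in MS−.

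Pdgfa also had the widest span of group means among the members, 0.64 on the log2 scale. The features whose levels over the 6 libraries were most like it were F2r, the thrombin receptor PAR1 (Pearson r = 0.998), Lgalsl, a galectin-like protein (r = 0.996), and Heca (r = 0.996). These correlations are across only 6 libraries that share 3 media and 2 rats, 178 features had r above 0.95, and they are given as a description. F2r was at 773 and 912 CPM in FBS and at 1702 to 1835 CPM in the 4 rat serum libraries. Lgalsl was at 94.8 and 113 CPM in FBS and at 172 to 189 CPM in the rat sera, and Heca at 27.7 and 32.7 against 45.2 to 48.1 CPM.

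Hbegf, which encodes the heparin-binding EGF-like ligand of EGFR, had the smallest span of group means of the 8 members, 0.10 on the log2 scale. Its levels in rats 1 and 2 were 296 and 212 CPM in FBS, 268 and 231 CPM in MS−, and 301 and 235 CPM in MS+. The 3 media overlapped, and rat 1 was the higher in each. The log2 difference was 0.10 between MS+ and MS− (95% interval −0.35 to 0.55), 0.09 between MS+ and FBS (−0.37 to 0.54) and −0.01 between MS− and FBS (−0.46 to 0.44), with limma adjusted p of 0.873, 0.811 and 0.984.

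Fgf2, basic FGF, and Fgf7, the keratinocyte growth factor that fibroblasts release towards epithelium, were low. Fgf2 was at 3.77 and 2.98 CPM in FBS, 1.28 and 4.16 CPM in MS−, and 2.16 and 1.84 CPM in MS+, which is 7 to 23 reads per library. The MS+ libraries lay below both FBS libraries, and MS− overlapped both groups. The log2 difference of −0.54 between MS+ and FBS had a 95% interval of −1.48 to 0.40, so neither no change nor a fall of 2-fold lay outside it (limma, adjusted p = 0.424). Fgf7 was at 2.46 and 11.4 CPM in FBS, 3.48 and 7.05 CPM in MS−, and 3.78 and 8.99 CPM in MS+ (15 to 69 reads). All media overlapped for Fgf7, its differences between media were −0.13 to 0.20 on the log2 scale, and the limma adjusted p was 0.924 to 0.952. The direction of its MS+ difference from FBS was not the same under all tests. The Fgf7 row overlaps another gene in the annotation, so reads in the shared stretch may be missing from it. Areg and Ereg, the EGF family ligands amphiregulin and epiregulin, were below the floor in every library. Areg had 0 to 2 reads per library (at most 0.332 CPM), and so did Ereg, which allows a level of up to 0.491 to 0.551 CPM and no comparison between media.

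Among the receptors, Pdgfra, which binds the A chain, lies on rn4 chromosome 14 from 35369422 to 35418126 (− strand). It was at 124 and 181 CPM in FBS, 131 and 168 CPM in MS−, and 156 and 228 CPM in MS+. Rat 2 was above rat 1 in each medium, and the groups overlapped, while within each rat MS+ was the highest medium. The log2 difference of MS+ was 0.34 from MS− (0.25 in rat 1 and 0.44 in rat 2) and 0.33 from FBS (0.34 and 0.33). Neither passed with condition as the only term (limma, adjusted p = 0.573 and 0.422). With the rat as a block both passed (limma, adjusted p = 0.0207 and 0.00991), and over all 17 alternatives the adjusted p ran from 0.0178 to 0.942 and from 0.00991 to 0.920. Between MS− and FBS the log2 difference was −0.01 (95% interval −0.59 to 0.56).

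Pdgfrb, the receptor for the PDGF B and D chains, was high in all cultures. It was at 2335 and 2362 CPM in FBS, 2500 and 2518 CPM in MS−, and 2348 and 2137 CPM in MS+. MS− lay above both other media without overlap, by a narrow margin. The log2 difference was −0.16 between MS+ and MS− (95% interval −0.44 to 0.11), −0.07 between MS+ and FBS (−0.34 to 0.21) and 0.10 between MS− and FBS (−0.18 to 0.37), and the limma adjusted p was 0.579, 0.751 and 0.696.

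Fgfr1, the main FGF receptor of mesenchymal cells, lies on rn4 chromosome 16 from 70869974 to 70910045 (− strand). Its levels were 76.1 and 90.7 CPM in FBS, 64.6 and 67.6 CPM in MS−, and 51.7 and 62.0 CPM in MS+. The 3 media did not overlap, with FBS highest and MS+ lowest in both rats. The difference between MS+ and FBS was −0.54 in log2 (−0.55 in rat 1 and −0.54 in rat 2) and missed the adjusted threshold (limma, adjusted p = 0.0516). It passed with the rat as a block (limma, adjusted p = 0.000928), with library totals as the scaling, in edgeR (adjusted p = 0.0475) and in DESeq2 (adjusted p = 0.0499), and the range over 17 alternatives was 0.000515 to 0.226. Between MS− and FBS the log2 difference was −0.33 (limma, adjusted p = 0.227), which passed with the block (limma, adjusted p = 0.0337; range over alternatives 0.0204 to 0.515). The neighbouring media MS+ and MS− differed by −0.22, with a 95% interval of −0.54 to 0.10 (limma, adjusted p = 0.518).

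Egfr, the receptor of Hbegf, amphiregulin and epiregulin, was detected at 30 to 80 reads per library. It was at 4.91 and 13.3 CPM in FBS, 5.67 and 8.68 CPM in MS−, and 6.31 and 8.63 CPM in MS+. Rat 2 was higher in every medium, and all media overlapped. The log2 differences were 0.06, −0.13 and −0.19 in MS+ against MS−, MS+ against FBS and MS− against FBS, with 95% intervals of −0.94 to 1.07, −1.14 to 0.88 and −1.20 to 0.81 (limma, adjusted p = 0.966, 0.873 and 0.845).

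**Figure D2:**
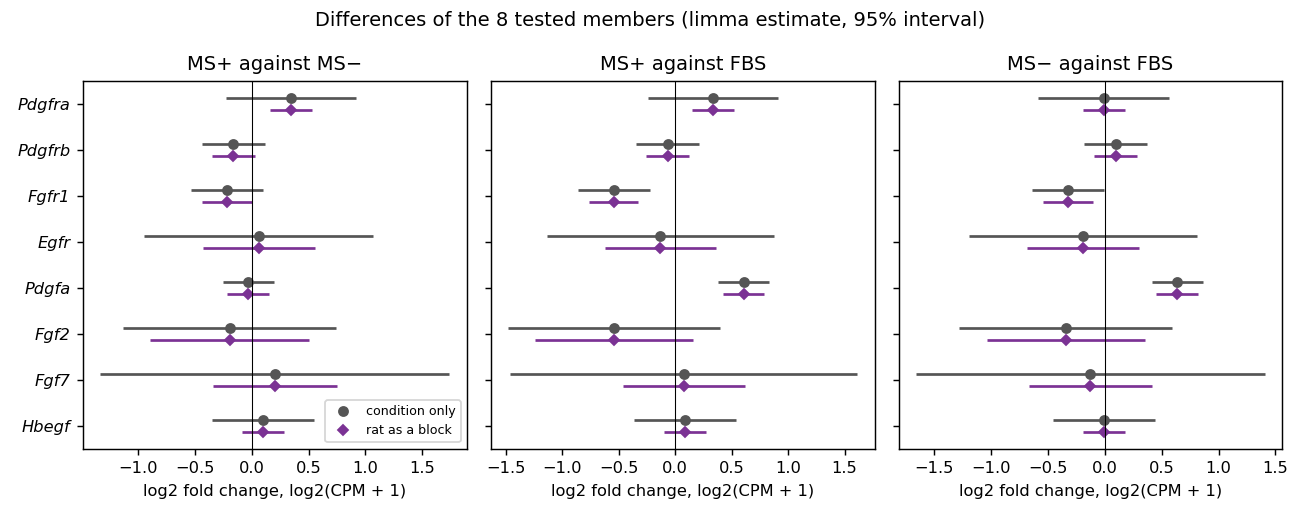
Log2 fold change, on log2(CPM + 1), of the 8 tested members in each comparison, with 95% intervals, from limma with condition as the only term (grey circles) and with the rat as a block (violet diamonds). In both panels against FBS the Pdgfa intervals lie right of 0, at 0.60 and 0.64, and with the block the Pdgfra intervals lie right of 0 in both panels of MS+.

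Counted by overlap alone, 3 of 8 tested members had groups without overlap between MS+ and MS− (Pdgfrb, Pdgfa and Fgfr1, each lower in MS+), beside 45.8% of all features. The count was 3 between MS+ and FBS (Pdgfa higher, Fgf2 and Fgfr1 lower), beside 56.7%, and 3 between MS− and FBS (Pdgfrb and Pdgfa higher, Fgfr1 lower), beside 51.6%. With 2 libraries per group, groups without overlap were common among all features, and 3 of 8 members is a smaller share than each of these.

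Several members differed between the cells of the 2 rats. Egfr, Fgf7, Fgfr1 and Pdgfra were higher in rat 2 in all 3 media (4 of 8 members, beside 21.4% of all features), and Hbegf was lower in rat 2 in all 3 (1 of 8, beside 21.1%). Fgf7 was 4.66-fold higher in the cells of rat 2 than in those of rat 1 in FBS, 2.03-fold in MS− and 2.38-fold in MS+. Egfr was 2.70-fold higher in rat 2 in FBS, 1.53-fold in MS− and 1.37-fold in MS+, and Pdgfra 1.46-fold, 1.28-fold and 1.46-fold. Hbegf was 1.40-fold higher in rat 1 in FBS, 1.16-fold in MS− and 1.28-fold in MS+. Pdgfa was 1.13-fold higher in rat 2 in FBS and nearly equal in the cells of both rats in rat serum. With 1 culture per rat and medium, rat and culture cannot be told apart, and no test of the rats was made.

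**Figure D3:**
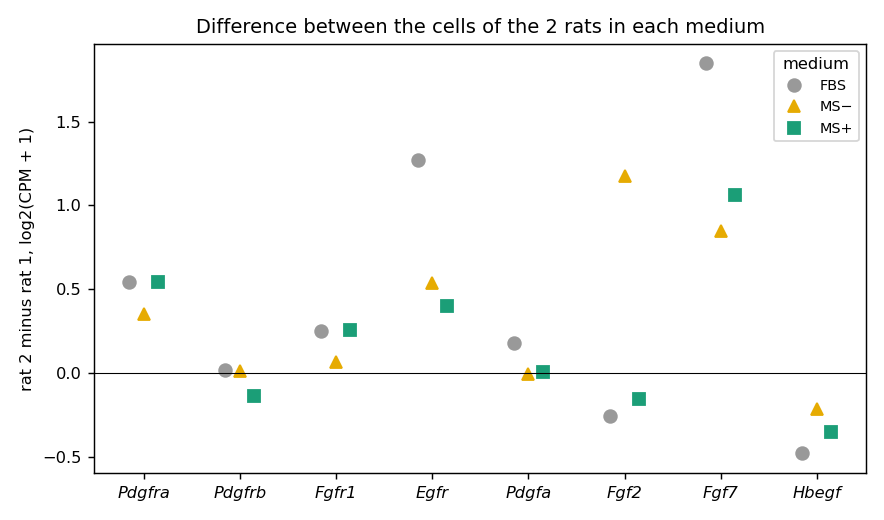
Difference between the cells of rat 2 and rat 1 on log2(CPM + 1) for each tested member, with 1 symbol per medium. Fgf7 (0.85 to 1.85) and Egfr (0.40 to 1.27) lie above 0 in every medium, Hbegf lies below 0, and the Pdgfa symbols in both rat sera lie within 0.01 of 0.

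The other genes of the 3 families were taken from lists of 4 PDGF, 27 FGF and 11 EGF genes, of which 4, 25 and 9 were found and 3, 7 and 5 passed the filter. Of these 15 tested genes, 1 passed the adjusted threshold, in MS+ against FBS. In MS+ against MS− and in MS− against FBS 0 passed in limma, edgeR or DESeq2, and 2 and 4 reached an unadjusted p under 0.05 in limma, beside 14.7% and 21.1% of all features. With the rat as a block 2 of 15 passed in MS+ against MS−, 6 in MS+ against FBS and 4 in MS− against FBS, beside 10.1%, 28.2% and 20.5%. The gene called without the block was Pdgfrl, a PDGF receptor-like protein, at 110 and 104 CPM in FBS, 130 and 126 CPM in MS−, and 159 and 139 CPM in MS+. The 3 media did not overlap for Pdgfrl, with MS+ highest. It was 1.39-fold higher in MS+ than in FBS (log2 fold change 0.48, limma, adjusted p = 0.0349), a call that was lost when any 1 of the 6 libraries was left out (limma, adjusted p up to 0.173), and its difference of 0.26 between MS− and FBS passed only with the block (limma, adjusted p = 0.203, and 0.0472 with the block; range over alternatives 0.0472 to 0.496).

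Pdgfd, a PDGF chain that binds the beta receptor, was at 3.93 and 9.95 CPM in FBS, 7.68 and 11.9 CPM in MS−, and 12.1 and 20.9 CPM in MS+. MS+ lay above both other media. The log2 difference of 1.20 between MS+ and FBS met the study's thresholds (unadjusted p = 0.0275 in limma, adjusted p = 0.127) and passed with the block (limma, adjusted p = 0.00033; range over alternatives 0.000228 to 0.429). That of 0.68 between MS+ and MS− passed only with the block (limma, adjusted p = 0.534, and 0.0426 with the block; range 0.0245 to 0.872). The Pdgfd row overlaps another gene in the annotation. Pdgfc, the C chain, was at 22.9 to 36.7 CPM and passed in no comparison, and Pdgfb, the B chain, at 0.18 to 3.15 CPM did not pass the filter.

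In the FGF family, Fgf1, acidic FGF, was at 28.0 and 16.1 CPM in FBS, 60.6 and 34.2 CPM in MS−, and 53.0 and 25.9 CPM in MS+. Rat 1 was the higher in every medium, and MS− did not overlap FBS. The log2 difference of 1.06 between MS− and FBS (1.09 in rat 1 and 1.04 in rat 2) met the study's thresholds and missed the adjusted one (limma, adjusted p = 0.208), and passed with the block (limma, adjusted p = 1.99e-05; range over alternatives 8.02e-06 to 0.546). That of 0.78 between MS+ and FBS also passed only with the block (limma, adjusted p = 0.281, and 0.000302 with the block; range 0.000151 to 0.770). The remaining tested genes passed in neither fit. The ligand Fgf10 was at 15.8 to 25.0 CPM, Fgf22 at 2.70 to 4.97 CPM and Fgf9 at 0.663 to 2.34 CPM. The receptor Fgfr3 was at 6.95 to 13.2 CPM, the kinase-lacking Fgfrl1 at 52.2 to 68.1 CPM, and the binding protein Fgfbp3 at 2.20 to 4.16 CPM. Fgfr2, the epithelial FGF receptor, has 6 rows, and the row used was at 0 reads in every library. Reads shared by overlapping transcripts are dropped in the counting, so these zeros do not show that Fgfr2 was absent.

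In the EGF family, Nrg1, neuregulin 1, a ligand of ERBB3 and ERBB4, was at 25.5 and 21.2 CPM in FBS, 27.3 and 19.5 CPM in MS−, and 16.2 and 5.69 CPM in MS+. Both MS+ libraries lay below all 4 others. Its log2 difference between MS+ and MS− was −1.17 (−0.71 in rat 1 and −1.62 in rat 2), and between MS+ and FBS −1.18. Both met the study's thresholds and missed the adjusted one (limma, adjusted p = 0.274 and 0.124), and both passed with the block (limma, adjusted p = 0.00298 and 0.000745; ranges over alternatives 0.00298 to 0.592 and 0.000745 to 0.346). Tgfa, TGF-alpha, another ligand of EGFR, was at 146 and 126 CPM in FBS and at 164 to 175 CPM in the rat sera. The log2 differences of Tgfa from FBS, 0.30 in MS+ and 0.32 in MS−, missed the threshold (limma, adjusted p = 0.114 and 0.143) and passed with the block (0.0222 and 0.0228; ranges 0.0222 to 0.332 and 0.0228 to 0.441). Erbb2, the receptor that has no ligand of its own, was at 39.5 and 34.8 CPM in FBS. In the rat sera it was at 24.7 to 29.6 CPM. Its log2 differences from FBS, −0.50 in MS+ and −0.40 in MS−, also missed it (limma, adjusted p = 0.0685 and 0.158) and passed with the block (0.0114 and 0.0452; ranges 0.00777 to 0.258 and 0.0297 to 0.495). Erbb4 at 2.95 to 12.6 CPM and Egf at 0.732 to 2.32 CPM passed in neither fit.

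**Figure D4:**
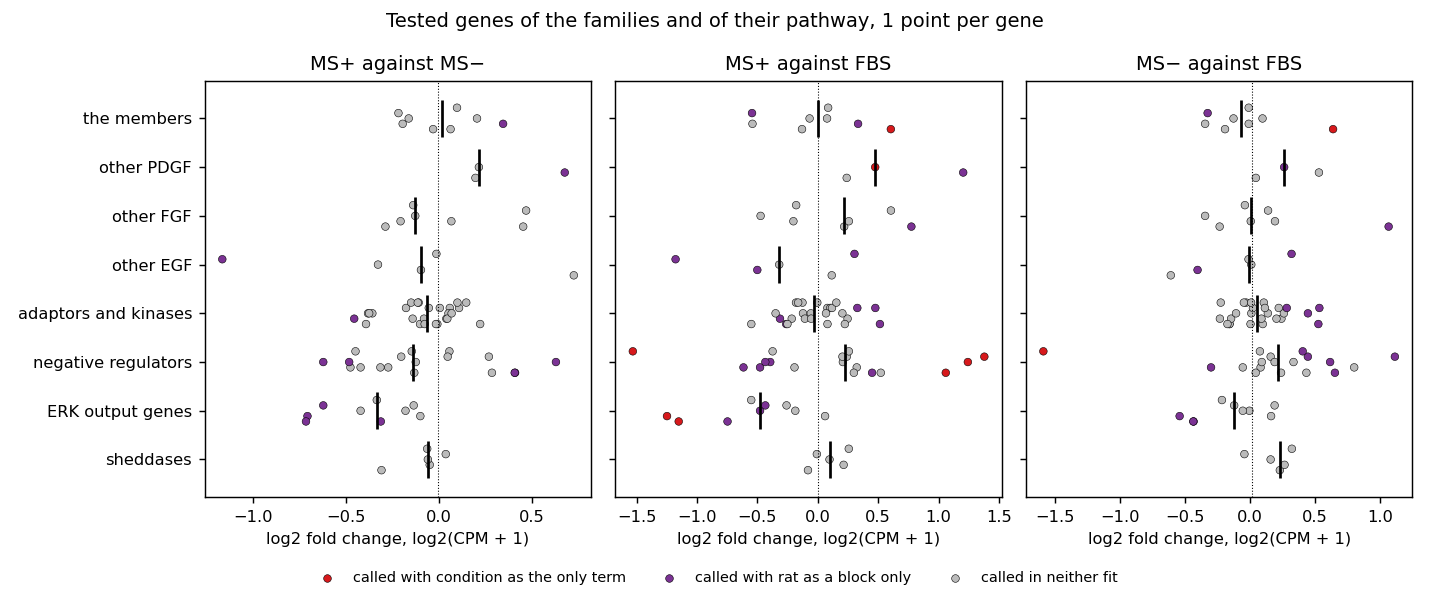
Log2 fold change, on log2(CPM + 1), of each tested gene of the members and 7 lists in the 3 comparisons, with black bars at the list medians and a dotted line at the median of all features. Red marks genes called with condition as the only term, violet those called only with the rat as a block. Red points lie in the panels against FBS, and all 9 tested ERK output genes lie left of 0 in MS+ against MS−.

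Downstream of the receptors, 4 lists were described: adaptors and kinases (26 tested of 27 found), negative regulators (18 of 21), ERK output genes (9 of 10) and sheddases with their cofactors (5 of 6). No adaptor or kinase passed the adjusted threshold in any comparison in limma, edgeR or DESeq2, and 4, 5 and 3 of 26 reached an unadjusted p under 0.05 in limma in MS+ against MS−, MS+ against FBS and MS− against FBS, beside 14.7%, 27.5% and 21.1% of all features. With the block 1 passed in MS+ against MS− (Gab1, an adaptor, lower in MS+), beside 10.1% of all features. None of the 5 sheddase genes (Adam9, Adam17, Rhbdf1, Rhbdf2, Furin) passed in either fit or in edgeR or DESeq2, 0 reached an unadjusted p under 0.05 in limma, and their log2 differences were −0.31 to 0.32.

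Among the negative regulators, 4 of 18 passed in MS+ against FBS and 1 of 18 in MS− against FBS, beside 9.61% and 4.81% of all features. With the block 9 passed in MS+ (4 higher, 5 lower) and 7 in MS− (5 higher, 2 lower), beside 28.2% and 20.5%. In MS+ against MS− 0 passed in limma, edgeR or DESeq2, and 5 reached an unadjusted p under 0.05 in limma (14.7% of all features). There 5 passed with the block, 3 higher and 2 lower in MS+, beside 10.1%. Errfi1 (MIG6), an inhibitor of the EGFR kinase, was at 33.2 and 40.6 CPM in FBS, 50.7 and 63.6 CPM in MS−, and 77.3 and 101 CPM in MS+. The 3 media did not overlap, and each rat showed the same order. Errfi1 was 2.37-fold higher in MS+ than in FBS (log2 fold change 1.24, limma, adjusted p = 0.0116), and the difference of 0.63 between MS+ and MS− passed only with the block (limma, adjusted p = 0.209, and 0.00139 with the block; range over alternatives 0.000512 to 0.547). Cblb, a ubiquitin ligase that marks activated receptors for degradation, followed the same order. Its levels were 46.8 and 63.2 CPM in FBS, 85.1 and 86.9 CPM in MS−, and 123 and 107 CPM in MS+. It was 2.09-fold higher in MS+ than in FBS (log2 fold change 1.06, limma, adjusted p = 0.0114). Socs2, a cytokine-induced inhibitor of receptor signalling, was at 6.55 and 9.62 CPM in FBS, 20.7 and 16.3 CPM in MS−, and 30.6 and 16.2 CPM in MS+, and rose by 1.38 in log2 in MS+ against FBS (limma, adjusted p = 0.0437). The Socs2 call was lost when any 1 of the 6 libraries was left out (limma, adjusted p up to 0.187). Socs3, of the same family, was lower in rat serum, at 5.40 and 7.46 CPM in FBS, 1.65 and 1.27 CPM in MS−, and 1.44 and 1.65 CPM in MS+. It fell by 1.53 in log2 in MS+ (limma, adjusted p = 0.0174) and by 1.59 in MS− (adjusted p = 0.0211) against FBS. The median log2 fold change of the 18 genes was −0.14 in MS+ against MS−, 0.22 in MS+ against FBS and 0.21 in MS− against FBS.

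Of the ERK output genes, 2 of 9 passed in MS+ against FBS, beside 9.61% of all features, and 5 with the block, beside 28.2%. Dusp6, the phosphatase that inactivates ERK, was at 66.3 and 86.7 CPM in FBS, 47.6 and 56.4 CPM in MS−, and 32.8 and 29.9 CPM in MS+. Etv5, an ETS transcription factor induced by FGF signalling, was at 96.6 and 115 CPM in FBS, 78.7 and 76.6 CPM in MS−, and 44.7 and 49.2 CPM in MS+. For both genes the 3 media did not overlap, with FBS highest and MS+ lowest in each rat. Dusp6 fell by 1.25 in log2 (limma, adjusted p = 0.0084) and Etv5 by 1.15 (adjusted p = 0.00526) in MS+ against FBS. Between MS+ and MS− the log2 differences of −0.71 for Dusp6 and −0.72 for Etv5 passed with the block (limma, adjusted p = 0.00239 and 0.000514) and missed the threshold without it (adjusted p = 0.144 and 0.111; ranges over alternatives 0.00188 to 0.487 and 0.000411 to 0.456). The estimate was negative for 9 of 9 tested genes in MS+ against MS−, with a median of −0.34, and for 8 of 9 in MS+ against FBS, with a median of −0.48; of all 9820 features, 5008 and 4904 had a negative estimate. Dusp4, the gene of the list that did not pass the filter, was near the floor and was not lower in MS+. It was at 0.491 and 0.497 CPM in FBS, 1.65 and 0.904 CPM in MS−, and 2.52 and 0.918 CPM in MS+. This list was chosen with earlier results of these data known. None of the 9 passed in MS+ against MS− with condition as the only term, where 3 reached an unadjusted p under 0.05 in limma (14.7% of all features), edgeR called 0 and DESeq2 called Etv5. With the block 4 passed (Ccnd1, Dusp6, Etv5, Spry4), beside 10.1%. In MS− against FBS 0 passed in limma, edgeR or DESeq2, 2 reached an unadjusted p under 0.05 (21.1% of all features), and 3 passed with the block (20.5%). Spry2 and Spry4 belong to this list and to that of the negative regulators.

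Leaving out single libraries ended several of these pathway calls in MS+ against FBS. The calls of Cblb and Dusp6 were lost without MS+ replicate 1 or MS+ replicate 2 (limma, adjusted p up to 0.0909 and 0.0585), and that of Etv5 without MS+ replicate 1 (0.0541). The call of Errfi1 was lost without either MS+ library or without FBS replicate 1 (up to 0.0683), and both calls of Socs3 without any 1 of the 4 libraries compared (up to 0.0995 in MS+ and 0.122 in MS−). The direction of these calls held in each of those fits.

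**Figure D5:**
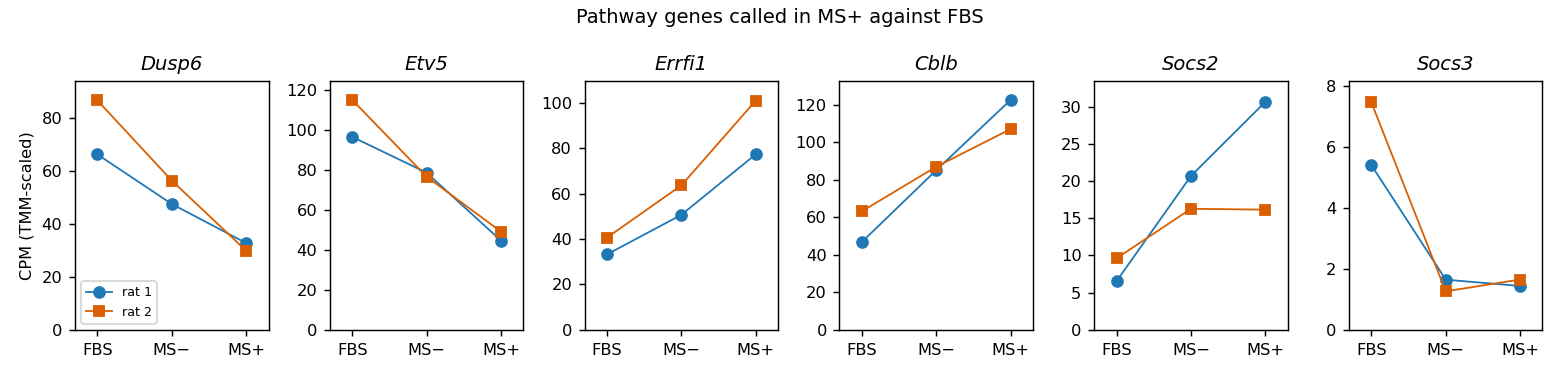
Levels in CPM (y axis, linear from 0) of the 6 pathway genes called in MS+ against FBS, by medium, with 1 line per rat. Dusp6 and Etv5 step down from FBS over MS− to MS+ in both rats, Errfi1 and Cblb step up, and Socs3 is below 1.66 CPM in all rat serum libraries.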

How the data were processed

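The 6 libraries held mRNA enriched on oligo(dT) beads and were read on an Illumina instrument. The submitters' processing notes name Bowtie2 2.1.0, HTSeq 0.5.4p3 and rn4. The authors counted reads per transcript, without stating whether strand was used, normalised the counts to TMM-scaled library sizes with edgeR, and deposited this signal in CPM for 17221 transcript rows (4567 at 0 in every library). Reads shared by overlapping transcripts are dropped in the counting mode they name, so rows that overlap another gene or another row of the same symbol are uncertain. Whole reads were recovered from the deposited signal in 100% of values within a tolerance of 1e-06. Floors cover counting error only.

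Differences were tested with limma 3.58.1 in R 4.3.3 (eBayes with trend, two-sided) on log2(CPM + 1), which understates changes of low genes, over 9820 features with at least 1 CPM in both libraries of a group. The fit held all 6 libraries with condition as the only term, and p-values were adjusted by Benjamini-Hochberg over all features. The study rule was an unadjusted p under 0.05, a change of 2-fold and a mean of 1 CPM. The study set these thresholds on limma-voom after a filter of its own, so its calls may differ from those here. The planned design reserved limma-voom for a table of raw counts. The label descriptions carry the prefixes RA1 and RA2 in each group, read here as the same 2 rats, which pairs the libraries. The difference of rat 2 from rat 1 correlated across features by 0.59 (MS+ and MS−), 0.49 (MS+ and FBS) and 0.62 (MS− and FBS), and the rat was added as a block in a second fit. Alternatives were other scalings, a pseudocount of 0.1 CPM, no filter, the sum of all rows of a symbol, edgeR 4.0.16 and DESeq2 1.42.0 on recovered reads, limma-voom, only the groups compared, and leaving out each library.

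Genes were named by a rule: the 10 members, each tested gene of the PDGF, FGF and EGF lists, and pathway genes called under the adjusted or study rule, at most 6 per list and comparison, and the 3 features most like the member of the widest span. Genes named beyond this (Pdgfb, Fgfr2, Gab1, Ccnd1, Spry2, Spry4, Dusp4, the sheddases and cell type markers) are given as values or counts, and their choice was made with the values known. Members, lists and rule were chosen with earlier results of these data known. Promoter sequences and motif shares are from RefSeq, GRCr8; coordinates of genes are rn4, 1-based. The calls of adaptors and kinases with the block against FBS are not reported here.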

Additional observations from a re-analysis of the deposited data

How the results depend on the processing

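With the rat as replicate block, a pairing read from the labels, the members called were 1 in MS+ against MS−, 3 in MS+ against FBS and 2 in MS− against FBS in limma, and likewise 1, 3 and 2 in edgeR with the block. The genes called on the other lists were 11, 23 and 18 with the block in limma and 11, 23 and 17 in edgeR, against 0, 7 and 1 without it in limma. Of all features, limma called 10.1%, 28.2% and 20.5% with the block and 0.0204%, 9.61% and 4.81% without it. These 7 lists held 3, 7, 5, 26, 18, 9 and 5 tested genes, and Spry2 and Spry4 were counted once. In MS+ against FBS, 2 members were called with library totals, with edgeR and with DESeq2. DESeq2 called 1 gene of the other lists in MS+ against MS− and 2 in MS− against FBS. No share of all features was computed for these settings, for edgeR with the block or for the fits without 1 library. Their counts therefore have no background beside them.

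Leaving out 1 library gave 0 to 1 members called in MS+ against FBS and 0 to 1 in MS− against FBS. For the other lists it gave 0 to 5 in MS+ against FBS (0 without MS+ replicate 1, 1 without MS+ replicate 2, 3 without FBS replicate 1, 4 without FBS replicate 2) and 0 to 1 in MS− against FBS (0 without FBS replicate 1, MS− replicate 1 or MS− replicate 2). No member met the study rule under any alternative run.

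The Fgf7 difference between MS+ and FBS turned to −0.12 in edgeR, −0.13 in DESeq2 and −0.087 in edgeR with the replicate block. Leaving out 1 library turned the direction of differences that no fit without the block had called. In MS+ against MS− the ranges were −0.78 to 0.39 for Fgf2, −0.33 to 0.74 for Fgf7, −0.21 to 0.33 for Egfr, −0.081 to 0.27 for Hbegf, −0.79 to 0.21 for Fgf1, −0.059 to 0.030 for Tgfa, −0.17 to 0.71 for Socs2 and −0.057 to 0.17 for Socs3. In MS+ against FBS they were −0.85 to 1.00 for Fgf7, −0.77 to 0.50 for Egfr and −0.15 to 0.33 for Hbegf. In MS− against FBS they were −0.28 to 0.26 for Pdgfra, −0.93 to 0.24 for Fgf2, −1.05 to 0.80 for Fgf7, −0.83 to 0.44 for Egfr, −0.25 to 0.23 for Hbegf, −0.047 to 1.10 for Pdgfd and −0.24 to 0.22 for Nrg1. Fgf2, Fgf7 and Egfr rest on 7 to 80 reads per library. Where a lone library remained in a group, it was assumed to vary like the others. The causes of these changes were not tested.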
